A study of Mus musculus with 4 samples.

Results

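Expression of 10 genes that mark microglia or are raised when myeloid cells become active was followed in the adult mouse retina. Deletion of Nrl, the transcription factor of rod photoreceptors, had been induced in the knockout mice. The genes form a given list, and all of them were measured, 10 of the 19421 genes that had a probe set to themselves. They comprised 3 markers of resident microglia (Tmem119, P2ry12 and Cx3cr1), the growth factor receptor of the lineage (Csf1r), and 6 genes grouped as activation genes (Aif1, Itgam, Tyrobp, Trem2, Cd68 and Lyz2). Knockout mice were Nrlflox/flox and control mice Nrlflox/+, so that the controls carried a floxed allele beside an intact one. Mice of both genotypes carried CAG-CreERTM, a Cre recombinase that enters the nucleus once it binds tamoxifen and that a ubiquitous promoter drives, so the promoter did not limit recombination to rods. All of them received 4-hydroxytamoxifen intraperitoneally each day from postnatal day 42 to 44, and retinas were taken on day 63, 19 days after the last dose. There were 2 arrays per genotype, each with RNA of 4 retinas pooled from 2 animals.

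Microglia are the resident macrophages of the central nervous system, and in the healthy retina they lie in the synaptic layers. They live on signals through Csf1r, sense nucleotides through P2ry12 and the neuronal chemokine fractalkine through Cx3cr1. When photoreceptors are stressed or die, microglia move toward the outer retina, take up debris and alter their expression. Receptors such as Trem2 signal through Tyrobp (DAP12), a membrane adaptor whose cytoplasmic tail recruits the kinase Syk, and in several models of neurodegeneration this pathway accompanies a fall in resident markers and a rise in phagocytic and lysosomal genes.

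The deposited values were log2 signals per probe set, and the array medians lay between 5.99 and 6.04. Each of the 10 genes had 1 probe set, so no choice between probe sets was needed. A level on this scale depends on the probes as well as on the RNA, so levels of different genes were not ranked against each other. No detection values were used, so whether any of the 10 signals lies near background was not tested. Tmem119, P2ry12, Csf1r, Aif1, Itgam and Lyz2 lay below the median signal of all genes. Nrl itself averaged 7.31 in the knockout and 8.17 in control, or 55.2% of the control signal (limma adjusted p = 0.289). Both knockout pools were below both controls, by a log2 difference of −0.64 in replicate 1 and −1.08 in replicate 2. Whether the Nrl signal left in the knockout comes from intact transcripts was not tested. Of 8 retinal neuron genes listed as a check of the tissue, 6 were measured. Their mean level was lower on each knockout array (8.41, 8.44) than on either control array (8.61 on both). The replicate number coincided with the sex of the pools: Xist stood at 4.07 and 4.09 in the replicate 1 pools and at 10.66 and 10.47 in the replicate 2 pools, while Kdm5d and Uty, on the Y chromosome, ran the other way. The difference within each replicate number, given below, is therefore a difference between pools of the same sex. In whole retina a change in the number of microglia and a change in the RNA per microglial cell cannot be told apart.

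Of the 10 genes, Tyrobp alone passed the test over all genes (limma, Benjamini-Hochberg adjusted p under 0.05), and it was higher in the knockout. Of all 19421 genes 39 passed, a share of 0.201%. At an unadjusted p under 0.05 there were 6 of the 10 (Tyrobp, Aif1, Cx3cr1, Cd68 and Csf1r higher, Tmem119 lower), against 7.07% of all genes. Both knockout arrays lay above both control arrays for 5 of the 10, against 17.0% of all genes, and below them for 2 (Tmem119 and Itgam), against 18.4%. The median log2 fold change of the 10 was 0.36, beside a median of −0.0026 over all genes, with 7 above 0 and 3 below. As the list was drawn up with results of these arrays known, the counts describe it and are no test of it.

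**Figure D1:**
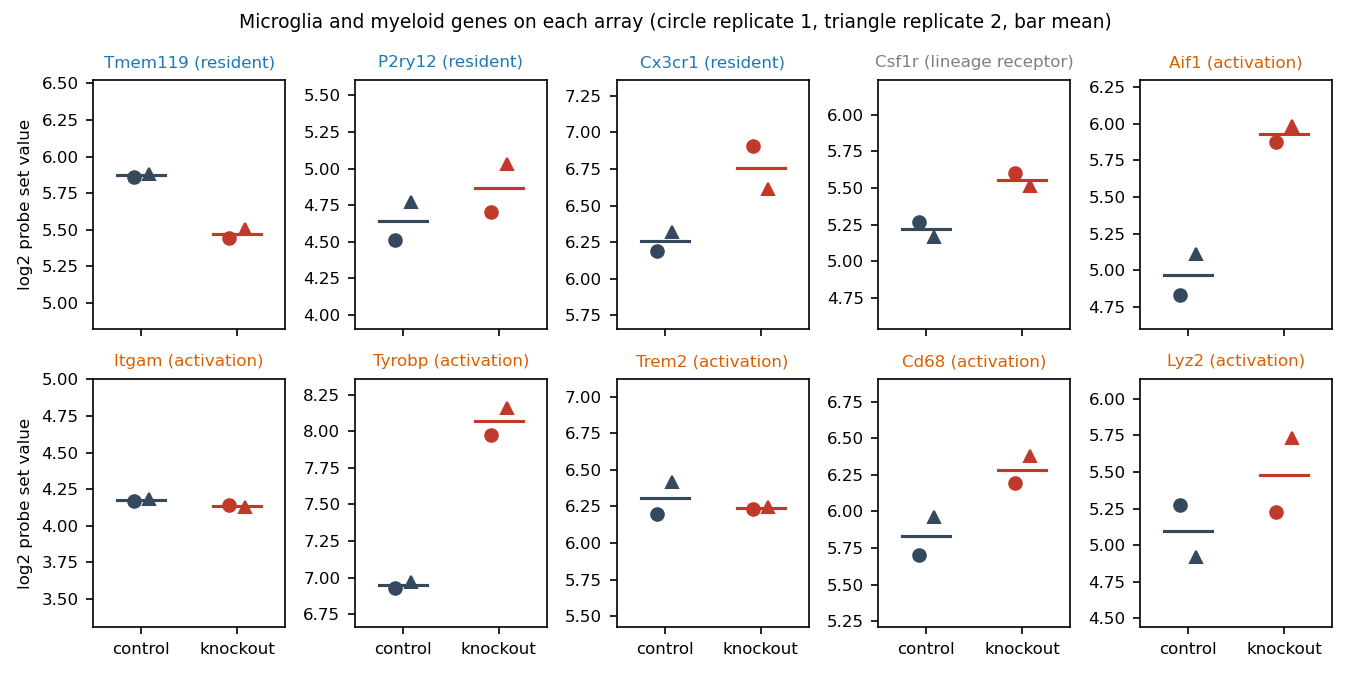
Log2 probe set values of the 10 genes on each array, in panels of equal height; circles are replicate 1, triangles replicate 2 and bars group means (n = 2). Tyrobp and Aif1 show the widest gaps between control and knockout, Tmem119 is lower in both knockout pools, and Itgam and Trem2 lie at like levels in both groups.

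The 3 resident markers did not move together. Tmem119, a transmembrane protein that tells microglia from other macrophages in the brain, was at 5.44 and 5.50 in the knockout and at 5.86 and 5.88 in control. Both knockout values were thus below both controls, and pools of one genotype were close to each other. Its mean was 5.47 ± 0.04 in the knockout and 5.87 ± 0.01 in control (SD, n = 2 each). The log2 fold change was −0.40 (limma adjusted p = 0.403, SE 0.10), which is 75.7% of the control signal. The difference was −0.42 in replicate 1 and −0.38 in replicate 2, and 262 of the 19421 genes had a larger fall.

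P2ry12, the ADP receptor that steers microglial processes toward injury, measured 4.70 and 5.03 in the knockout and 4.51 and 4.77 in control. The groups overlapped, and in each genotype the replicate 2 pool was the higher one. Its log2 fold change was 0.23 (SE 0.15, adjusted p = 0.852 by limma) with a 95% interval from −0.15 to 0.60, which holds both no change and a rise of 1.51-fold. Leaving out knockout replicate 2 brought it to 0.06, leaving out control replicate 1 to 0.09, and it was 0.39 without knockout replicate 1 and 0.36 without control replicate 2. RefSeq places P2ry12 within the span of Med12l, a Mediator subunit gene named here for its position, which had a log2 fold change of −0.11. Whether its transcripts reach the P2ry12 probes was not tested.

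Cx3cr1, the fractalkine receptor, was at 6.91 and 6.61 in the knockout and at 6.19 and 6.32 in control. Both knockout pools were above both controls, and the wider gap was in replicate 1. The log2 fold change was 0.50 (SE 0.13, limma adjusted p = 0.469), a ratio of 1.42. It was 0.72 in replicate 1 and 0.29 in replicate 2. The resident markers thus ran from −0.40 for Tmem119 to 0.50 for Cx3cr1, opposite in sign in both replicates, and the 95% intervals of these genes, −0.64 to −0.17 and 0.18 to 0.82, did not overlap. These intervals are for single genes and are not adjusted for the number of genes.

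Csf1r, the cytokine receptor on which microglial survival depends, was at 5.60 and 5.51 in the knockout and at 5.27 and 5.17 in control. The groups did not overlap, and the differences of 0.33 and 0.35 in the separate replicates were close. Its log2 fold change was 0.34 (SE 0.10, adjusted p = 0.562 by limma), or 1.27-fold. Its ligands showed less. Csf1 had 0.22 (SE 0.14, adjusted p = 0.840), and Il34, the ligand that neurons make, had 0.06 (SE 0.10, adjusted p = 0.966), both with overlapping groups. Cx3cl1, which encodes fractalkine, had 0.07 (SE 0.10, adjusted p = 0.950).

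Tyrobp measured 7.98 and 8.16 in the knockout and 6.93 and 6.97 in control. The lowest knockout value was more than 1 log2 unit above the highest control value. The means were 8.07 ± 0.13 and 6.95 ± 0.03 (SD, n = 2 each), and the rise was 1.12 on the log2 scale (SE 0.11, limma adjusted p = 0.0347), or 2.17-fold with a 95% interval from 1.81 to 2.61. It was 1.05 in replicate 1 and 1.19 in replicate 2. By size, 36 of 19421 genes had a larger rise, and by unadjusted p Tyrobp ranked 24 in the table. The size was stable when any single pool was left out, from 1.03 to 1.21, but the call was not: the adjusted p then ran from 0.135 to 0.416, with no call for Tyrobp in any of the 4 cases. With the replicate number, and so the sex of the pools, as a block, the adjusted p was 0.0729.

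Trem2, the lipid-sensing receptor that signals through Tyrobp, did not share that rise. It was at 6.23 and 6.25 in the knockout and at 6.20 and 6.42 in control, so the knockout pools lay inside the range of the controls. The log2 fold change was −0.07 (SE 0.11, adjusted p = 0.962 by limma), and its 95% interval, −0.35 to 0.21, lay wholly below that of Tyrobp, 0.85 to 1.38. The sign turned to 0.04 without control replicate 2. Among 14 other measured partners and signalling proteins of the pathway none was called by limma. At an unadjusted p under 0.05 there was 1, against 7.07% of all genes. Of the 14, 7 lay above 0 and 7 below, and the median was −0.0011. Fcer1g, the Fc receptor γ chain and a second adaptor of this type, had 0.42 (SE 0.10, adjusted p = 0.425) and was higher in both replicates, at 0.51 and 0.33. Card9, an adaptor downstream of Syk, had −0.19 (SE 0.10, adjusted p = 0.804).

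Aif1, which encodes the calcium-binding protein Iba1 used to stain microglia, followed Tyrobp most closely in size. It was at 5.88 and 5.99 in the knockout and at 4.83 and 5.11 in control, without overlap. The log2 fold change was 0.96 (SE 0.13, limma adjusted p = 0.0912), a ratio of 1.95, with 1.05 in replicate 1 and 0.88 in replicate 2, and 48 genes had a larger rise. Its adjusted p lay on either side of the threshold across settings: 0.0456 after quantile normalization, 0.0388 with arrays centred on their medians and 0.0317 with a variance prior that follows intensity, but between 0.331 and 0.540 with any pool left out.

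Itgam, the αM integrin chain (CD11b) that with the β2 chain forms complement receptor 3, differed from Aif1 although both are used as general markers of microglia. It was at 4.14 and 4.13 in the knockout and at 4.17 and 4.18 in control. The knockout pools were lower, but by only 0.04 (SE 0.10, adjusted p = 0.978 by limma), with a 95% interval from −0.27 to 0.19. A fold of more than 1.14 upward is outside that interval. The probe set's signal was low, and whether it lies near background was not tested, since no detection values were used. Its partner Itgb2, chosen after its value was seen, had −0.04 as well.

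The promoters of Aif1 and Itgam are shown because these 2 general microglial markers had unlike changes, and they were picked after their values were seen. Promoter sequences were used for 7 of the 10 genes, and those of Tyrobp, Tmem119 and Csf1r were not among them. Each sequence covers 250 bases before to 50 after the annotated start, on build GRCm38.p6, read 5′ to 3′ on the gene's strand, with the core GAGGAA of sites for the myeloid factor PU.1, or its reverse complement TTCCTC, in capitals. The Aif1 window is chr17:35176003-35176302 on the minus strand and the Itgam window chr7:128062390-128062689 on the plus strand.
Aif1: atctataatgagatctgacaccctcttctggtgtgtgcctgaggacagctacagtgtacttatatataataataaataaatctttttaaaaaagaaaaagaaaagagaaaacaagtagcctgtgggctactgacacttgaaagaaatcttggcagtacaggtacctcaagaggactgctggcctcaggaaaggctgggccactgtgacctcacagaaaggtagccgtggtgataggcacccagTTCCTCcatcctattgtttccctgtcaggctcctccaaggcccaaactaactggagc
Itgam: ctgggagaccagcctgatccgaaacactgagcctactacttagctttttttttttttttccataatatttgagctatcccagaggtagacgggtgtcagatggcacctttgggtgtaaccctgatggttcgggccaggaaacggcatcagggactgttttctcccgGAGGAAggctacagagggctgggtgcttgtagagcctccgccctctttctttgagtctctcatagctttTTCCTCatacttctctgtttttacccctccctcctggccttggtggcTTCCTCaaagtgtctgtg
Both strands were searched. The Itgam window held 3 matches and the Aif1 window 1, while 28.3% of 32851 promoters of this length held at least 1. Among the 7 genes, the Cd68 window held 2, that of Trem2 held 1, and those of P2ry12, Cx3cr1 and Lyz2 held none. Among genes with a match, the log2 fold changes were −0.04 for Itgam, 0.45 for Cd68, 0.96 for Aif1 and −0.07 for Trem2. Those of P2ry12, Cx3cr1 and Lyz2, with none, were 0.23, 0.50 and 0.38. Any link between matches and change was not tested. A match is a run of letters and not a shown binding site.

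Cd68, a glycoprotein of late endosomes and lysosomes in phagocytes, was at 6.19 and 6.38 in the knockout and at 5.70 and 5.96 in control. The groups were apart, and replicate 2 was the higher pool in each. The log2 fold change was 0.45 (SE 0.13, limma adjusted p = 0.530), or 1.37-fold, with 0.49 and 0.42 in the separate replicates.

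Lyz2, which encodes the lysozyme of macrophages, was the most variable of the 10. It was at 5.22 and 5.73 in the knockout and at 5.28 and 4.92 in control, so that the groups overlapped. Only the replicate 2 knockout pool was above both controls. The log2 fold change was 0.38 (SE 0.20, adjusted p = 0.790 by limma), made up of −0.05 in replicate 1 and 0.82 in replicate 2. It ran from 0.13 without knockout replicate 2 to 0.64 without knockout replicate 1. Lyz1, its close relative and neighbour, had 0.28 (SE 0.22), and hybridisation shared between them was not tested.

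**Figure D2:**
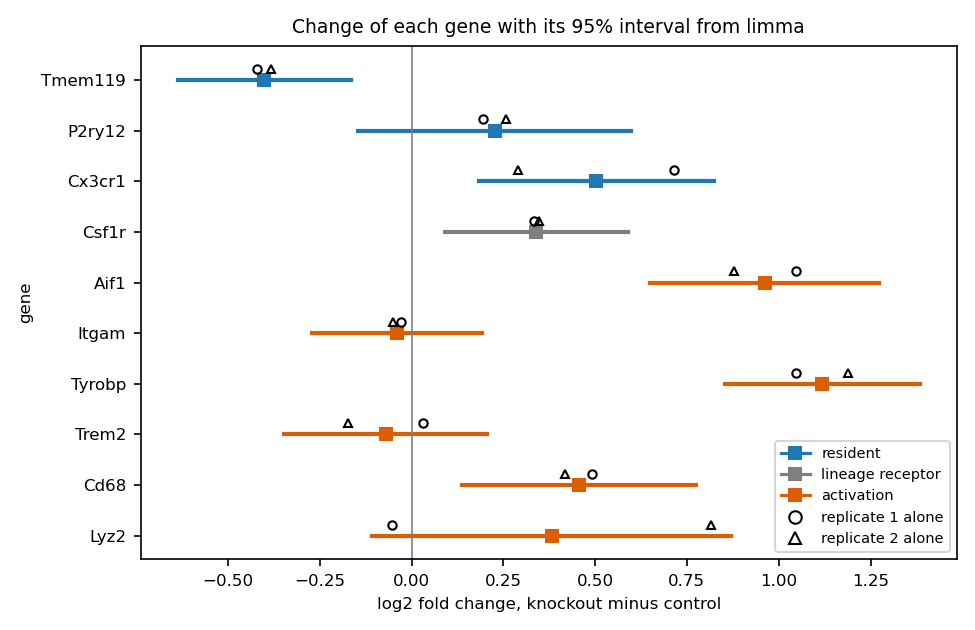
Log2 fold change, knockout minus control, of each gene (squares) with its 95% interval from limma (lines) and the difference in each replicate (open symbols). Tyrobp and Aif1 lie near 1, Tmem119 at −0.40, and the intervals of P2ry12, Itgam, Trem2 and Lyz2 include 0.

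When the resident markers were set against the activation genes, the mean log2 fold change was 0.11 for the 3 resident genes and 0.47 for the 6 activation genes, a gap of 0.36. The gap had the same direction in both replicates, at 0.26 in replicate 1 and 0.46 in replicate 2. Resident genes ran from −0.40 to 0.50 and activation genes from −0.07 to 1.12, so the groups overlapped, and Cx3cr1 among the resident genes exceeded Itgam, Trem2, Cd68 and Lyz2 among the activation genes. The gap also rested on dim genes: among the 4 genes above the median signal of all genes (Cx3cr1, Tyrobp, Trem2 and Cd68), the resident minus activation difference was 0.0024 in place of −0.36. No test was made of this contrast, as its genes were grouped with results of these arrays known.

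**Figure D3:**
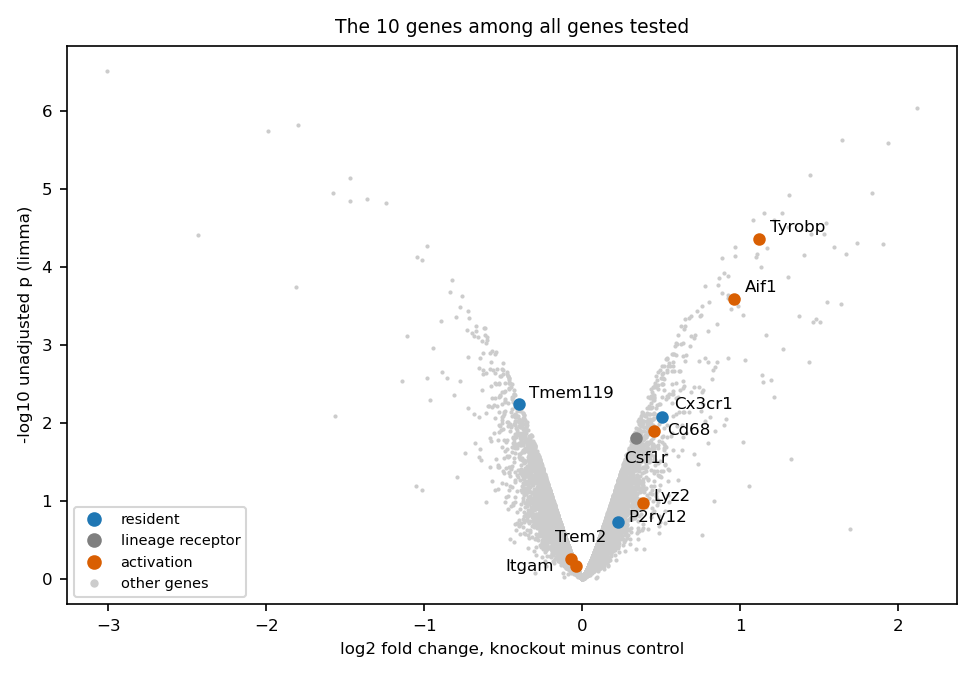
Log2 fold change against −log10 of the unadjusted limma p for 19421 genes (grey) and the 10 genes (coloured by group). Tyrobp and Aif1 lie on the upper right arm, Tmem119 on the left arm, and Itgam and Trem2 at the base.

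Several of the 10 genes have a relative, or another gene of myeloid cells, as a nearest protein-coding neighbour in RefSeq. The values of such pairs are given side by side, and differences within a pair were not tested. Hcst (DAP10), an adaptor beside Tyrobp, had a log2 fold change of 0.24 (SE 0.14) against 1.12. Itgax (CD11c), beside Itgam, had 0.28 (SE 0.15) against −0.04. P2ry13, an ADP receptor beside P2ry12, had 0.11 (SE 0.13) against 0.23, and Selplg, a selectin ligand of microglia beside Tmem119, had 0.11 (SE 0.16) against −0.40. The pair of Lyz1 and Lyz2 is given above. None of these 4 neighbours passed the test over all genes, with limma adjusted p between 0.798 and 0.955. They were picked by hand among the genes on either side, and the other neighbours are not given. All 4 are also members of the microglial and myeloid lists that follow.

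Further microglial and myeloid genes were read in 8 lists that held none of the 10. Together these had 101 measured genes, of which 1 was called, against 0.201% of all genes. Of the 101, 71 lay above 0 and 30 below. Their median was 0.11, while 49.05% of all genes lay above 0. At an unadjusted p under 0.05 there were 15 higher and 3 lower, and over all genes the share at that p in either direction was 7.07%. These lists were drawn up with results known and were not tested as sets. The called gene was Ctss, the lysosomal protease cathepsin S, at 8.99 and 8.69 in the knockout against 7.43 and 7.19 in control, a rise of 1.53 (SE 0.15, limma adjusted p = 0.0327). Ctss was no longer called with the replicate number as a block (adjusted p = 0.0539) or with any pool left out, where the size ran from 1.38 to 1.68 and the adjusted p from 0.0878 to 0.378.

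Other homeostatic microglial genes, of which 10 were measured, had 0 calls (limma; 0 at an unadjusted p under 0.05) and a narrow range from −0.02 to 0.22, with a median of 0.11. The genes with the smallest p were Cst3, cystatin C, with a log2 fold change of 0.17 (limma adjusted p = 0.815), and Tgfbr1, a TGF-β receptor, with 0.18 (adjusted p = 0.860). None of them was as low as Tmem119. The 18 measured genes of the disease-associated microglial state had 0 calls by limma and 4 at an unadjusted p under 0.05, all higher, with a median of 0.17. Over all genes 7.07% had such a p in either direction. Of the 18, 13 lay above 0 and 5 below, while 49.05% of all genes lay above 0. The genes named here are those with the smallest p. Cd9, a tetraspanin, had 0.59 (SE 0.11, adjusted p = 0.219) and Cd63, a tetraspanin of lysosomes, 0.49 (SE 0.12, adjusted p = 0.399). Both are also made by other retinal cells.

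Among genes shared by leukocytes and myeloid cells limma called 0. Of 18 measured, 16 lay above 0, against 49.05% of all genes, and the median was 0.21. At an unadjusted p under 0.05, 4 were higher, against 7.07% of all genes in either direction. Ly86, a partner of a Toll-like receptor relative, had 0.53 (SE 0.12, adjusted p = 0.368) and Laptm5, a lysosomal membrane protein of haematopoietic cells, 0.47 (SE 0.11, adjusted p = 0.404). Of 8 phagocyte lysosome genes Ctss rose, 7 did not pass, and the median was 0.21.

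Among 15 cytokine and complement genes 0 were called by limma and the median was 0.06. At an unadjusted p under 0.05 there were 2 higher and 1 lower, against 7.07% of all genes in either direction. The higher ones encode chains of C1q, which microglia make in the retina: C1qc had 0.82 (SE 0.17, adjusted p = 0.289) and C1qa 0.55 (SE 0.12, adjusted p = 0.353). The remaining chain, C1qb, chosen after its value was seen, had 0.22 and was not among them. Of 10 measured CSF1R ligands and myeloid transcription factors 0 were called, with a median of 0.06, and 2 were higher and 1 lower at an unadjusted p under 0.05. Runx1 had 0.33 (SE 0.11, adjusted p = 0.625), and Mef2c, which photoreceptors express as well, had −0.45 (SE 0.10, adjusted p = 0.305). The 8 fractalkine and purinergic genes had 0 calls and a median of 0.0031, with 1 higher and 1 lower at an unadjusted p under 0.05. In that list the ectonucleotidase Entpd1 (CD39) had 0.31 (SE 0.12) and the ATP-gated channel P2rx4 −0.28 (SE 0.11), with limma adjusted p of 0.681 and 0.659.

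**Figure D4:**
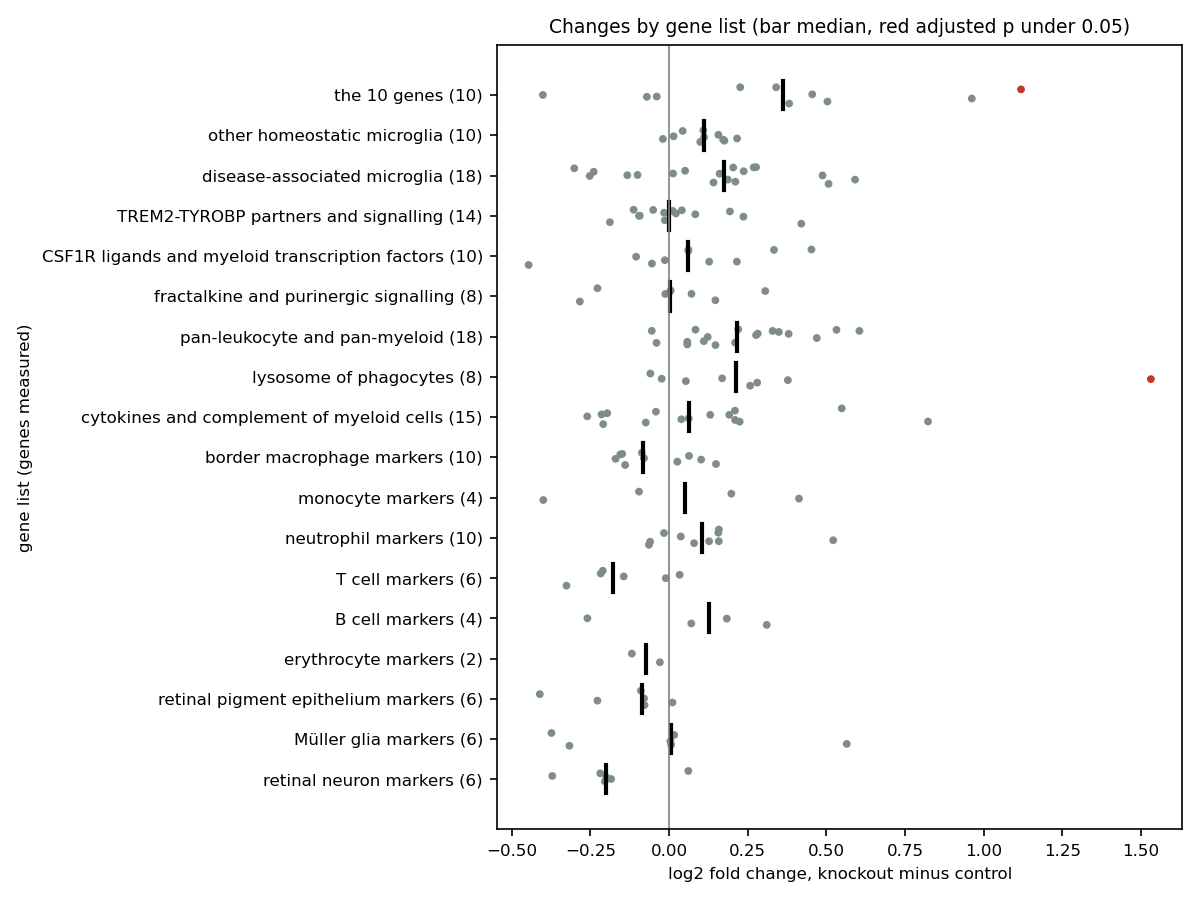
Log2 fold change, knockout minus control, of every measured gene in each list (points), with the list median (black bars) and genes at an adjusted p under 0.05 in red. The 10 genes have a median of 0.36, the pan-leukocyte list 0.21 and the TREM2-TYROBP list a median near 0.

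Markers of other cells that share some of these genes were read beside them, with markers of the retina and its surroundings. Of the 54 genes measured in these 9 lists limma called 0, against 0.201% of all genes. At an unadjusted p under 0.05, 3 were higher and 3 lower, against 7.07% of all genes in either direction. Border macrophage markers (10 of 10 measured) had a median of −0.08, with mean levels of 4.92 and 4.97 in the knockout and 4.98 and 4.99 in control, and F13a1 had 0.15 and Ms4a7 −0.17. Monocyte markers (4 of 7 measured) had a median of 0.05 and mean levels of 4.60 and 4.69 against 4.55 and 4.68. Within this list the integrin chain Itga4 had 0.41 (SE 0.12) and Chil3 −0.40 (SE 0.14), with limma adjusted p of 0.504 and 0.622. Neutrophil markers (10 of 10 measured) had a median of 0.10 and mean levels of 4.86 and 4.84 against 4.65 and 4.83, with S100a8 at 0.52 and Mmp8 at 0.16. Of these neutrophil genes 7 lay above 0 and 3 below, while 49.05% of all genes lay above 0. The difference for S100a8 was 0.92 in replicate 1 and 0.12 in replicate 2. T cell markers (6 of 7 measured) had a median of −0.18, with Cd2 at −0.33 and Cd3d at −0.22, and mean levels of 4.71 and 4.80 against 4.89 and 4.92. B cell markers (4 of 5 measured) had a median of 0.13, with Ms4a1 at 0.31 and Pax5 at −0.26, and mean levels of 4.69 and 4.98 against 4.68 and 4.84. Their part in the values of the 10 genes was not tested.

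Of the tissues around the retina, pigment epithelium markers (6 of 6 measured) had a median of −0.08, with Rpe65 at −0.41 and Tyr at −0.23, and mean levels of 5.86 and 5.84 in the knockout and 6.15 and 5.83 in control. Only 2 of 9 erythrocyte markers were measured, Alas2 at −0.12 and Slc4a1 at −0.03, with mean levels of 6.13 and 6.18 against 6.21 and 6.25. Müller glia markers (6 of 6 measured) had a median of 0.0054, with Vim, the filament vimentin, at 0.56 and Glul, glutamine synthetase, at −0.37. Their mean levels were 7.63 and 7.52 against 7.58 and 7.61. Retinal neuron markers (6 of 8 measured) had a median of −0.20, with Calb1 at −0.37 and the photoreceptor factor Crx at −0.20. Of the 6, 1 lay above 0 and 5 below, while 49.05% of all genes lay above 0. Both knockout arrays were below both controls for 4, against 18.4% of all genes, and above them for 1, against 17.0%. Mean levels of this list were 8.41 and 8.44 against 8.61 and 8.61.

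The genes with profiles most like those of Tyrobp and Tmem119 were found by the Euclidean distance between log2 values over the 4 arrays, each gene centred on its own mean. Nearest to Tyrobp were Nupr1, a stress-induced nuclear protein, at a distance of 0.0679, Stat3, which carries cytokine signals, at 0.113, and Agtpbp1, a carboxypeptidase of tubulin, at 0.115. All 3 were called by limma, with log2 fold changes of 1.11, 1.08 and 1.15, and none is a marker of microglia. Nearest to Tmem119 were Zcchc12 at 0.0193, Il12rb2 at 0.0365 and the odorant receptor gene Olfr934 at 0.0481. Those 3 had log2 fold changes of −0.40, −0.38 and −0.39, and none was called. With 4 arrays many genes share a profile by size alone.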

How the data were processed

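Whole retina RNA from 4 pools, 2 per genotype, was amplified (NuGEN Pico) and hybridised to 1 array each, as the labels' protocols state. Values were deposited on a log2 scale, 1 for each probe set and array. In the submitters' processing notes affy and limma appear without version or role. How background was corrected and arrays were normalized is not given in the sources used. The log2 base was taken from the range of the values. Of 21897 probe sets, 20877 carried 1 symbol in the platform annotation, 175 several and 845 none, and the last 2 kinds were left out. RefSeq gene IDs of GRCm38.p6 changed 0 symbols. The probe set with the highest mean stood for each of 19421 genes.

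The genotypes were compared by lmFit and eBayes of limma 3.58.1, run in R 4.3.3 (genotype only, two-sided, Benjamini-Hochberg over all genes, threshold 0.05), and the steps were tested on simulated data. Fold changes are knockout minus control. Each replicate pools its own animals. The p-values rest on the spread between pools of a genotype, which differed in sex, and on limma's variance prior over all genes. Pools of the same genotype and sex were not replicated. An exact permutation test of 2 arrays against 2 cannot give a p below 0.333. Precision is limited by the number of arrays.

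The 10 genes and all lists were chosen with earlier results of these data known. The naming rule took the 10 genes, Nrl, Xist, Kdm5d, Uty, 3 ligands (Csf1, Il34 and Cx3cl1), up to 4 called genes of each list or the 2 with the smallest p where none was called, and the 3 genes nearest to Tyrobp and to Tmem119. Itgb2, C1qb and the neighbours were named outside it. Promoters of Aif1 and Itgam were shown because those planned, of Tyrobp and Tmem119, were not in the table. List members without a value were not analysed here. Alternatives were another normalization, centring, a filter on dim genes, averaged probe sets, a variance trend, the replicate number as a block and leaving out each pool.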

Additional observations from a re-analysis of the deposited data

Results flagged for a closer look

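The knockout minus control differences of Trem2 and Lyz2 had opposite signs in the pools of replicate 1 and replicate 2, which differed in sex. For Trem2 the difference was 0.031 in replicate 1 and −0.17 in replicate 2. For Lyz2 it was −0.053 in replicate 1 and 0.82 in replicate 2. With 1 pool of each genotype per sex, the difference between the sexes was not tested, and 44.9% of all genes had opposite signs in the replicates. The other 8 genes of the list had the same sign in both.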

How the results depend on the processing

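The direction of 9 of the 10 genes was the same in every alternative that held them, and Trem2, from −0.179 without control replicate 1, turned to 0.038 without control replicate 2. The filter on dim genes, averaged probe sets, the variance trend and the replicate block cannot alter these fold changes. Only quantile normalization, centring and leaving out a pool could have changed a direction. The count of genes called over the whole table, 39, was 89 without dim genes (the lower 50% by mean signal), 128 with a variance trend and 8 with the replicate block, and it ran from 0 to 11 with a pool left out (limma; 0 calls without either control pool, where 1355 and 1328 genes had an unadjusted p under 0.05). The count among the 10 genes, 1, was 2 (Tyrobp and Aif1) after quantile normalization, with arrays centred on their medians and with the trend. It was 0 with the replicate block (limma). There, 6 of the 10 had an unadjusted p under 0.05, as had 1607 of all 19421 genes. Of the 101 genes of the 8 myeloid lists, an alternative added after seeing the data, 1 was called. This became 3 with the trend (Ctss, Cd9 and Mef2c) and 0 with the replicate block (limma). With the block, 24 of the 101 had an unadjusted p under 0.05, against 1607 of all 19421 genes. The resident minus activation difference, −0.36, was 0.0024 without dim genes, which left 4 of the 10. The median of the 10 genes, 0.36, was 0.48 without dim genes and, with a pool left out, lay between 0.25 and 0.37. No litter or batch is stated for the replicate numbers, but they coincided with the sex of the pools. Deviations of same-numbered arrays from their group means correlated at 0.239 over genes. The block took Tyrobp to a limma adjusted p of 0.0729 and left the remaining 9 genes uncalled. Without a pool, the lone pool of its group is assumed to vary like the other group.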
